A study of Mus musculus with 8 samples.

Results

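The 37 genes described here encode the coats, cargo receptors and retrieval receptors that carry proteins between the endoplasmic reticulum (ER) and the Golgi. They were taken by name from the 55414 gene identifiers of the count table, and all 37 were among the 13368 genes that passed the filter on low counts. RNA was sequenced from Paneth cells, epithelial cells deep in the crypts that secrete antimicrobial peptides, sorted from the small intestine of wild-type mice. Control mice received phosphate-buffered saline (PBS, 4 libraries) and the others received tumour necrosis factor (TNF, 4 libraries), and tissue was taken 3 hours after injection in both groups. The labels give the genotype only as wild type; the methods of the study name C57BL/6J mice and describe libraries from individual animals, and the sources used here do not give dose, route or age.

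Secreted proteins leave the ER in vesicles coated by COPII. The GTPase Sar1 starts the coat, Sec23 and Sec24 form its inner layer and select cargo, Sec13 and Sec31 form its outer cage, and Sec16 marks the exit sites where this happens. Cargo receptors and p24 proteins pull particular proteins into the vesicles, COPI vesicles return escaped proteins and receptors from the Golgi, and KDEL receptors pick up the ER chaperones among them. Paneth cells are known for an extensive ER and for the large load of defensins and lysozyme that passes through this route.

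The table held 23824717 to 32576077 counts per library, and levels are given as normalized CPM, which are counts scaled to a common library size. The 13 Paneth cell markers were all tested, with a summed level of 315986 to 466293 normalized CPM with PBS and 395537 to 1224540 with TNF (4 rose and 0 fell). Normalized CPM have no fixed sum per library, since a scaling factor below 1 raises every value of its library. Of 8 immune markers, *Cd3e* and *Cd79a* were at 0 in every library and 6 stayed under 1 normalized CPM in every library, and of 6 stromal markers *Col1a2* and *Col3a1* were at 0 and 5 stayed under 1. The summed level of 8 goblet cell markers ran from 7248 to 11262 normalized CPM with PBS and from 11356 to 25521 with TNF (2 markers rose and 2 fell). That of 5 stem cell markers ran from 1454 to 2351 and from 1312 to 1855 (0 rose and 4 fell), that of 5 enteroendocrine markers from 25.5 to 33.1 and from 47.1 to 122 (3 rose and 0 fell), that of 8 enterocyte markers from 51.9 to 73.0 and from 39.6 to 87.8 (0 rose and 2 fell), that of the 8 immune markers from 7.33 to 13.0 and from 10.8 to 68.7 (1 rose and 0 fell), and that of the 6 stromal markers from 0.186 to 0.452 and from 1.23 to 1.73 (1 rose and 0 fell). The part of these markers in the results below was not tested. TNF replicate 4 stood apart from the other libraries. Its scaling factor was 0.448 against 0.995 to 1.36 elsewhere, defensin genes of the *Defa* family took 51.4% of its counts against 32.0% to 37.9%, and the 37 transport genes took 0.199% of its counts against 0.421% to 0.524%. In bulk RNA such as this, fewer cells of a type and less RNA per cell cannot be told apart.

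With TNF, 7 of the 37 transport genes rose and 1 fell, which is 21.6% of them, where 43% of all tested genes were called (23.4% higher and 19.6% lower). The genes that rose were *Tmed5*, *Mcfd2*, *Sec23b*, *Sar1a*, *Sec24b*, *Sec16b* and *Sec24c*, and the gene that fell was *Lman1*. A gene was called at an adjusted p under 0.05 in the quasi-likelihood test of edgeR, adjusted by Benjamini-Hochberg over every gene tested, and all adjusted p-values below come from that test unless another is named. The median log2 fold change was 0.05 over the 37 genes and 0.03 over all tested genes. The normalized CPM of the 4 TNF libraries did not overlap those of the 4 PBS libraries for 15 of the 37 (11 above, 4 below), or 40.5%, where 42.1% of all tested genes did not overlap (22.4% above and 19.7% below). A fitted change of at least 1.5-fold in either direction, called or not, was found for 6 of the 37. With a call also required there were 4 higher and 0 lower, where 33.2% of all tested genes had both. Without TNF replicate 4, 10 genes were called higher and 3 lower, or 35.1%, against 50.4% of all tested genes (26.6% higher and 23.8% lower), and these 13 included the 8 called with all libraries. With both PBS replicate 4 and TNF replicate 4 left out, a setting chosen after the data were seen, 10 were called higher and 7 lower (45.9% against 56.9% of all tested genes, 29.2% higher and 27.7% lower), again with the 8 among them. The genes called lower there were *Lman1*, *Tmed3*, *Cope*, *Lman2*, *Kdelr1*, *Tmed10* and *Sec31a*.

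**Figure D1:**
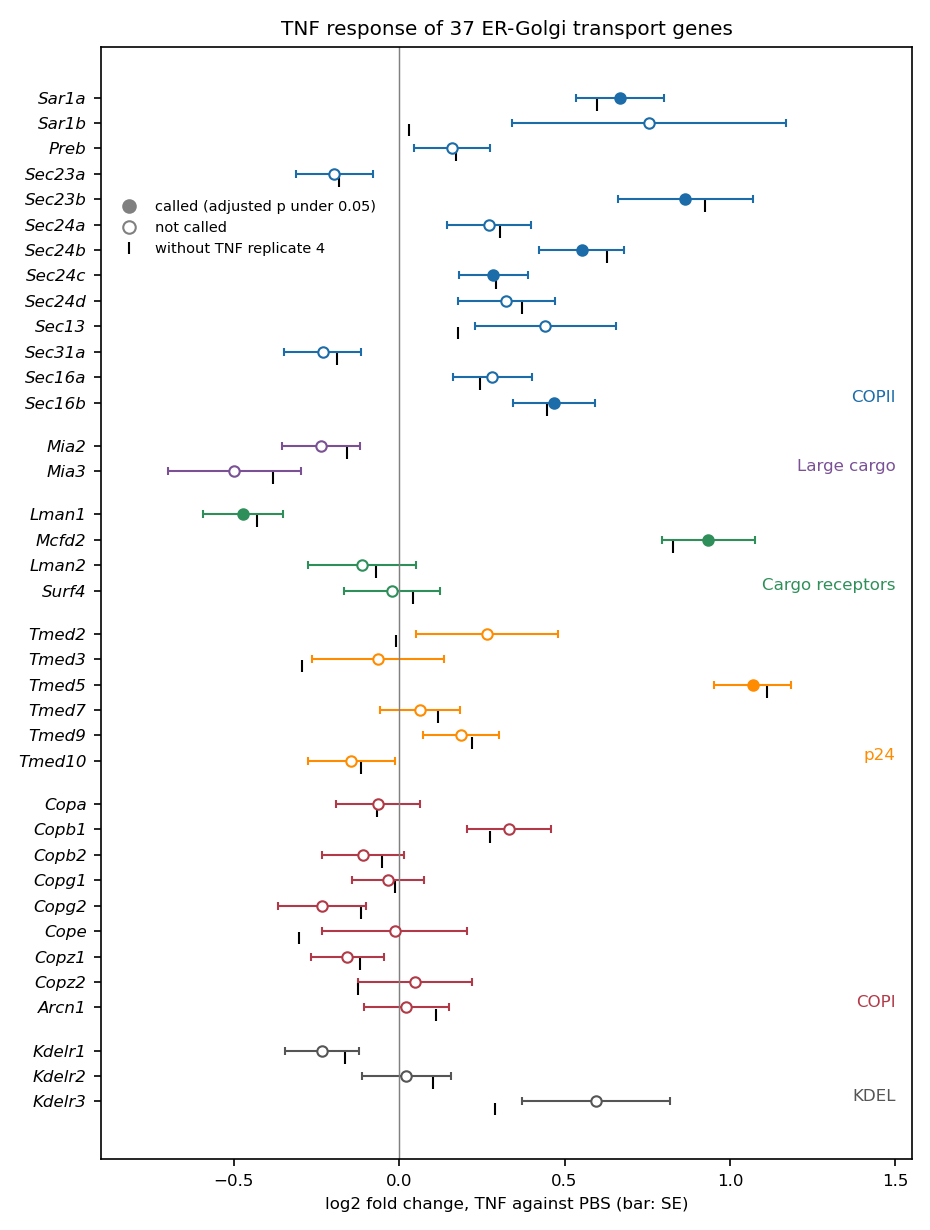
Each of the 37 genes is plotted by its log2 fold change, TNF against PBS (x axis, bars show the SE of the fit over 4 and 4 libraries), grouped by role. Filled circles mark the 8 called genes, 5 of them in the COPII group, and black ticks give the value without TNF replicate 4, which moves *Sar1b* from 0.76 to 0.03.

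In the resting state of the PBS mice the levels per kb of transcript spanned a wide range (canonical transcript lengths, normalized CPM per kb, mean ± SD, n = 4). The p24 protein *Tmed10* stood highest at 119 ± 17.4, followed by its relative *Tmed3* at 111 ± 13.7 and the cargo receptor *Surf4* at 106 ± 13.6, which do not differ beyond their spread. The p24 protein *Tmed9* (79.5 ± 7.91), the KDEL receptor *Kdelr2* (74.0 ± 8.07), the p24 protein *Tmed7* (67.9 ± 7.65), the KDEL receptor *Kdelr1* (63.7 ± 4.16) and the COPI subunit *Copa* (63.0 ± 6.32) came next, each within the spread of its neighbours in this order. The lowest were *Copg2* at 2.26 ± 0.151, *Sec23a* at 3.22 ± 0.353, *Sec24b* at 3.79 ± 0.521, *Sec16b* at 5.02 ± 0.544 and *Tmed5* at 5.66 ± 0.702. Of the genes that rose with TNF, *Sec24b*, *Sec16b* and *Tmed5* are among these 5 lowest. The range was also wide inside families whose members can take each other's place in a coat. *Sec23b* made up 89.2% ± 4.75 of the summed *Sec23* level per kb, *Copg1* 92.6% ± 0.449 of the *Copg* level, and *Sec24d* 55.5% ± 5.43 of the *Sec24* level, with *Sec24c* at 29.1% ± 1.88, *Sec24a* at 9.35% ± 2.26 and *Sec24b* at 6.04% ± 1.37.

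**Figure D2:**
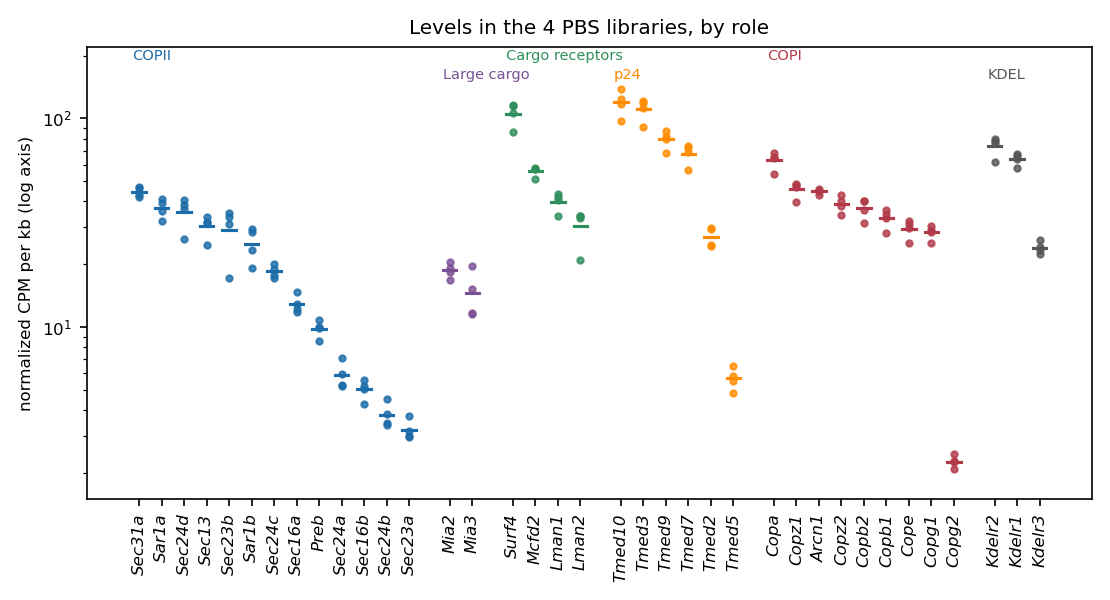
Normalized CPM per kb of canonical transcript (y axis, log scale) for the 37 genes in each of the 4 PBS libraries (points) with their mean (bar), sorted within each role. The p24 group holds both the highest gene, *Tmed10* at 119, and *Tmed5* at 5.66.

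Promoters were searched for the letters that factors of the unfolded protein response and of TNF signalling are known to read, because such factors are known regulators of ER genes; the motifs were chosen with results of these data known. The window ran from 250 bases before to 50 bases after the start of each canonical transcript, on both strands, in the promoters of 11674 tested protein-coding genes. The ER stress element (CCAAT and CCACG spaced by 9 bases) was in 0 of the 37 promoters (0.137% of all), ERSE-II (ATTGG and CCACG spaced by 1 base) in 1 (0.0857% of all), and the UPRE core TGACGTGG in 3, or 8.11%, against 0.839% of all. The kappaB letters (GGG and TTTCC spaced by 2 bases) were in 0 of the 37 (1.82% of all), as was the CRE TGACGTCA (3.31% of all). The UPRE and CRE letters begin alike but cannot match at the same position. The matches are printed 5′ to 3′ on the strand that reads the motif, with 5 flanking bases on each side and the motif in capitals, to show which members carry them. All are from GRCm39.
*Tmed2*, chr5:124678646-124678666, plus strand, before the start: tgatcATTGGCCCACGtcgaa
*Kdelr3*, chr15:79400574-79400591, minus strand, before the start: cgcggTGACGTGGcgggg
*Sec24a*, chr11:51647429-51647446, minus strand, just after the start: gtccgTGACGTGGcaggc
*Sec24d*, chr3:123061114-123061131, plus strand, just after the start: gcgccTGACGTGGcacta
These 4 genes are the p24 protein, the KDEL receptor and the cargo-binding coat subunits whose values are given below. With all 8 libraries, TMM scaling and the filter on low counts, none of them was called by edgeR. *Kdelr3* was called by DESeq2 (adjusted p 0.0322), and by edgeR without a filter beyond 1 count (adjusted p 0.0284) or under RLE scaling (adjusted p 0.0476). A match is a run of letters and not a measured binding site.

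Among the 13 genes of the COPII coat 5 rose and 0 fell, with a median log2 fold change of 0.32. That is 38.5% called, all of them higher, against 43% of all tested genes (23.4% higher and 19.6% lower). Without TNF replicate 4 it was 6 higher and 0 lower, or 46.2% against 50.4% (26.6% higher and 23.8% lower). In 9 of the 13, or 69.2%, the groups did not overlap (7 above, 2 below), where 42.1% of all tested genes did not (22.4% above and 19.7% below). Sar1 is the GTPase that starts the coat. *Sar1a* (chr10:61516060-61529095) had 95.5, 104, 109 and 85.6 normalized CPM in PBS replicates 1 to 4 and 139.7, 152, 152 and 183 in TNF replicates 1 to 4. All TNF libraries lay above all PBS libraries, and *Sar1a* rose by 0.67 ± 0.13 on the log2 scale (fitted change ± SE, adjusted p 0.00207), or 1.59-fold. *Sar1b*, the other Sar1 isoform, had 29.4, 37.1, 36.0 and 24.1 with PBS and 32.0, 33.1, 30.8 and 119.5 with TNF. The first 3 TNF libraries lay within the PBS range and TNF replicate 4 far above it. The fitted log2 change of *Sar1b* was 0.76 ± 0.41 (adjusted p 0.166), with a 95% interval of -0.16 to 1.67. It was 0.03 (adjusted p 0.877) once TNF replicate 4 was left out. *Preb*, which encodes the exchange factor that loads Sar1 with GTP, had a log2 change of 0.16 ± 0.12 (95% interval -0.09 to 0.41).

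Sec23 is the inner coat subunit that stimulates GTP hydrolysis by Sar1. *Sec23b* (chr2:144391970-144432684) had 98.1, 93.8, 87.4 and 47.9 normalized CPM with PBS and 158, 160.0, 143 and 134 with TNF. The groups did not overlap, PBS replicate 4 was the lowest library by far, and *Sec23b* rose by 0.86 ± 0.20 on the log2 scale (adjusted p 0.00582), or 1.82-fold. Leaving out PBS replicate 4 kept that call. Its paralogue *Sec23a* had 13.6, 12.7, 12.7 and 15.9 with PBS and 12.6, 11.4, 12.0 and 11.9 with TNF. These groups just failed to overlap, with TNF below, and the log2 change of -0.20 ± 0.12 was not called (adjusted p 0.198, 95% interval -0.45 to 0.06).

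Sec24 binds export signals on cargo, and its isoforms are known to differ in the signals they prefer. *Sec24b* (chr3:129776408-129855202) had 20.0, 17.7, 18.2 and 23.7 normalized CPM with PBS and 30.3, 29.4, 31.9 and 25.1 with TNF, and it rose by 0.55 ± 0.13 on the log2 scale (adjusted p 0.00538). The groups did not overlap, although TNF replicate 4 and PBS replicate 4 lay close to each other. *Sec24c* (chr14:20724316-20744920) had 90.7, 85.5, 78.0 and 80.5 with PBS and 102, 105, 97.2 and 103 with TNF. Its rise of 0.28 ± 0.10 (adjusted p 0.0473) was the smallest called and lost the call in 12 of 18 alternative fits. Among these were the omission of any PBS library (adjusted p 0.0937 to 0.158) and of TNF replicate 1, 2 or 3 (0.177, 0.223 and 0.0630). *Sec24d*, the most abundant isoform, had 158, 150.3, 143 and 103 with PBS and 175, 184, 174 and 162 with TNF. Its groups did not overlap, the log2 change was 0.32 ± 0.15 (adjusted p 0.0995), and it was called without TNF replicate 4 (0.37, adjusted p 0.0393). Without PBS replicate 4, the lowest library, it was 0.17 (adjusted p 0.339). *Sec24a* had 39.0, 34.1, 34.6 and 46.8 with PBS and 46.0, 44.3, 51.6 and 44.7 with TNF, so that PBS replicate 4 lay among the TNF libraries, with a log2 change of 0.27 ± 0.13 (adjusted p 0.106). It was called when PBS replicate 4 was left out (0.34, adjusted p 0.0489). Both *Sec24a* and *Sec24d* carry the TGACGTGG letters printed above. In TNF libraries *Sec24d* made up 55.8% ± 0.934, *Sec24c* 28.3% ± 1.33, *Sec24a* 8.91% ± 0.691 and *Sec24b* 6.97% ± 0.561 of the summed *Sec24* level per kb. The share of *Sec24b* was 5.44%, 5.11%, 5.53% and 8.08% in the PBS libraries and 7.22%, 6.77%, 7.60% and 6.30% in the TNF libraries, so that PBS replicate 4 was above all TNF libraries and the other PBS libraries were below them.

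The outer cage showed no call. *Sec13* had 43.1, 45.5, 42.7 and 33.5 normalized CPM with PBS and 44.8, 47.5, 46.0 and 86.5 with TNF, where again TNF replicate 4 stood alone. Its log2 change was 0.44 ± 0.21 (adjusted p 0.118) and 0.18 without that library. *Sec31a*, the other cage subunit and the most abundant COPII gene per kb at 44.6 ± 2.38 in PBS libraries, had 215, 212, 192 and 197 with PBS and 176, 167, 189.8 and 163 with TNF. The lowest PBS library lay just above the highest TNF library, with a log2 change of -0.23 ± 0.12 (adjusted p 0.132, 95% interval -0.49 to 0.02).

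Sec16 organises the exit sites. *Sec16b* (chr1:157334298-157395995) had 23.1, 22.4, 18.8 and 24.5 normalized CPM with PBS and 26.7, 33.9, 29.3 and 33.2 with TNF. It rose by 0.47 ± 0.12 on the log2 scale (adjusted p 0.0107) without overlap, and the call was lost when TNF replicate 2 was left out (0.38, adjusted p 0.0576). *Sec16a*, the longer and more abundant paralogue, had 129, 107, 112 and 103 with PBS and 135, 130.0, 132 and 151 with TNF. Its groups did not overlap, the log2 change was 0.28 ± 0.12 (adjusted p 0.0807), and DESeq2 gave an adjusted p of 0.0488.

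**Figure D3:**
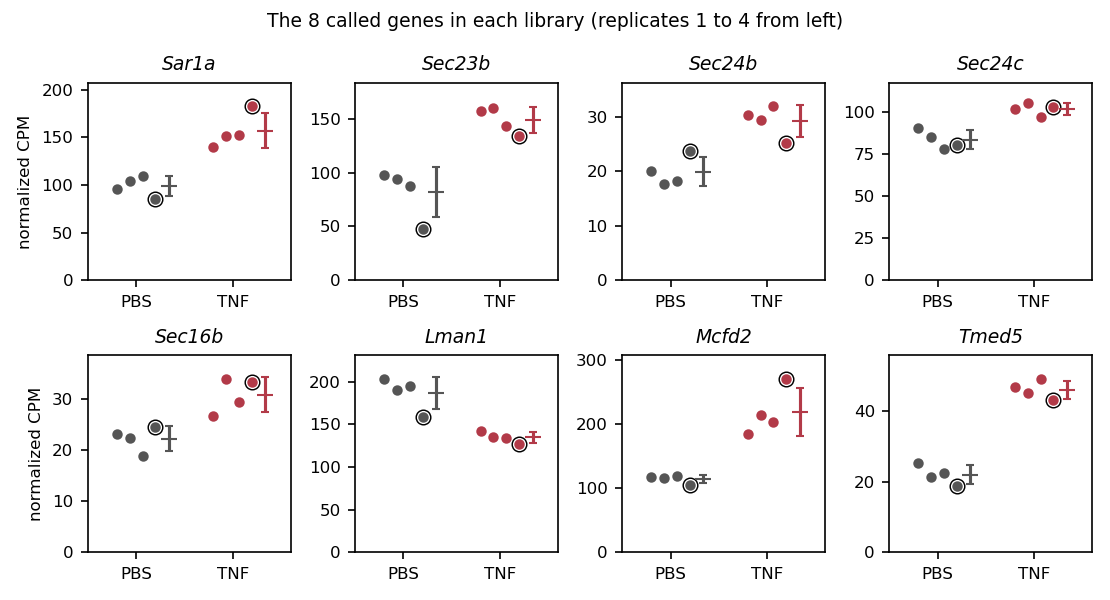
Normalized CPM (y axis, from 0) of the 8 called genes in each library, with PBS in grey, TNF in red, replicate 4 of each group circled, and mean and SD (n = 4) as a bar to the right of the points. In all 8 panels the groups do not overlap, and PBS replicate 4 is the lowest PBS library for *Sec23b* at 47.9.

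*Mia3* and *Mia2* encode TANGO1 and its partner cTAGE5, which help cargo too large for an ordinary COPII vesicle to leave the ER. With TMM scaling and the filter on low counts edgeR called 0 of the 2, where it called 43% of all tested genes. At an unadjusted p under 0.05 there was 1. DESeq2 called 1 of the 2, and 45.5% of all genes it tested, and limma-voom called 0. Without a filter beyond 1 count edgeR called *Mia3* lower (-0.53, adjusted p 0.0493), where 24.9% of all genes were called. *Mia3* had 165, 125, 127 and 212 normalized CPM with PBS and 123, 101, 134 and 86.8 with TNF. The groups overlapped through TNF replicate 3, and the log2 change was -0.50 ± 0.20 (adjusted p 0.0668, 95% interval -0.94 to -0.06, DESeq2 adjusted p 0.0452). *Mia2* had a log2 change of -0.24 ± 0.12 (adjusted p 0.131), from 78.4 ± 6.48 normalized CPM with PBS to 66.5 ± 6.98 with TNF (mean ± SD, n = 4).

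The cargo receptor subunits *Mcfd2* and *Lman1* went opposite ways. LMAN1 is a lectin that binds sugar chains on cargo, and MCFD2 is its soluble calcium-binding partner. Together they are known for carrying coagulation factors V and VIII out of the ER. *Mcfd2* (chr17:87519800-87573799) had 118, 117, 118 and 105 normalized CPM with PBS and 185, 215, 203 and 271 with TNF. It rose by 0.93 ± 0.14 on the log2 scale (adjusted p 0.000379), or 1.91-fold, with every TNF library above every PBS library. *Lman1* (chr18:66113808-66155651) had 203, 190.1, 195 and 159 with PBS and 143, 135, 134 and 127 with TNF. It fell by 0.47 on the log2 scale (SE 0.12, adjusted p 0.00929), and again the groups did not overlap. Within each library the count ratio of *Mcfd2* to *Lman1* was 0.580, 0.613, 0.606 and 0.660 in the PBS replicates and 1.30, 1.59, 1.52 and 2.13 in the TNF replicates, so that *Mcfd2* had fewer counts than *Lman1* in every PBS library and more in every TNF library. Neither direction rests on TNF replicate 4, without which the changes were 0.83 for *Mcfd2* and -0.43 for *Lman1*.

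The other 2 receptors gave no call. *Lman2*, a lectin of the early secretory route related to *Lman1*, had 149.9, 147, 151 and 93.1 normalized CPM with PBS and 131, 136, 116 and 117 with TNF. PBS replicate 4 was below all TNF libraries and the other PBS libraries above them, and the log2 change was -0.11 ± 0.16 (95% interval -0.47 to 0.25), and -0.29 (adjusted p 0.105) without PBS replicate 4. *Surf4*, a receptor for a broad set of soluble cargo, was close to level at -0.02 ± 0.14 (95% interval -0.34 to 0.30), from 346 ± 44.8 with PBS to 341 ± 29.2 with TNF.

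Of the 6 p24 proteins, transmembrane adaptors found in both COPII and COPI vesicles, only *Tmed5* was called with all libraries, or 16.7% against 43% of all tested genes, and 2 were called without TNF replicate 4, or 33.3% against 50.4%. *Tmed5* (chr5:108254230-108280568) had 25.3, 21.5, 22.5 and 18.7 normalized CPM with PBS and 46.8, 45.1, 49.3 and 43.1 with TNF. The replicates of each group lay close together, and *Tmed5* rose by 1.07 ± 0.12 on the log2 scale (adjusted p 4.1e-05), or 2.10-fold, the largest change among the 37. Its level per kb with TNF, 11.9 normalized CPM per kb, was still the lowest of the 6. *Tmed2* and *Tmed3* were both moved by TNF replicate 4. *Tmed2* had 60.1, 72.0, 72.7 and 59.4 with PBS and 66.2, 68.4, 60.0 and 124 with TNF, and its log2 change of 0.27 ± 0.22 became -0.01 without TNF replicate 4. *Tmed3* had 151, 164, 159.9 and 123 with PBS and 119, 126, 117 and 210.2 with TNF. With all libraries its log2 change was -0.06 ± 0.20, and it was called lower at -0.29 (adjusted p 0.0491) without TNF replicate 4. The remaining 3 changed by 0.06 ± 0.12 (*Tmed7*, 95% interval -0.21 to 0.33), 0.19 ± 0.11 (*Tmed9*, -0.07 to 0.44) and -0.14 ± 0.13 (*Tmed10*, -0.44 to 0.15).

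None of the 9 coatomer genes of the COPI coat was called in edgeR, where 43% of all tested genes were, and their median log2 fold change was -0.03. Without TNF replicate 4, 2 of the 9 were called, or 22.2% against 50.4%. At an unadjusted p under 0.05 there was 1, and DESeq2 and limma-voom each called 1. That gene is *Copb1*, the beta subunit, with 121, 126, 116 and 98.4 normalized CPM in the PBS replicates and 140.5, 141, 133 and 166 in the TNF replicates. Its groups did not overlap, and its log2 change was 0.33 ± 0.13 (adjusted p 0.0564, DESeq2 adjusted p 0.0311, and 0.27 with adjusted p 0.0439 without TNF replicate 4, but 0.22 with adjusted p 0.181 without PBS replicate 4). The subunits of the outer layer of coatomer gave log2 changes of -0.06 ± 0.13 (*Copa*, alpha, 95% interval -0.34 to 0.22), -0.11 ± 0.12 (*Copb2*, beta prime, -0.38 to 0.17) and -0.01 ± 0.22 (*Cope*, epsilon, -0.50 to 0.47). *Cope* had 77.4, 83.5, 80.4 and 65.3 with PBS and 61.5, 63.8, 59.4 and 119.7 with TNF. The first 3 TNF libraries were below all PBS libraries and TNF replicate 4 above them, and without it *Cope* was called lower at -0.30 (adjusted p 0.0305). The gamma subunits changed by -0.03 ± 0.11 (*Copg1*) and -0.23 ± 0.13 (*Copg2*), the zeta subunits by -0.16 ± 0.11 (*Copz1*) and 0.05 ± 0.17 (*Copz2*), and the delta subunit *Arcn1* by 0.02 ± 0.13, and none of these 5 was called in either fit. Every 95% interval of those 5 lay between -0.53 and 0.43.

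KDEL receptors return ER chaperones from the Golgi. With all libraries, TMM scaling and the filter on low counts, edgeR called 0 of the 3, where it called 43% of all tested genes. At an unadjusted p under 0.05 there was 1. DESeq2 called 1 of the 3, and 45.5% of all genes it tested, and limma-voom called 0. *Kdelr3* had 34.6, 33.3, 37.1 and 31.9 normalized CPM with PBS and 38.6, 44.0, 41.7 and 83.3 with TNF. All TNF libraries lay above all PBS libraries, TNF replicate 4 by far the most. The log2 change of *Kdelr3* was 0.60 ± 0.22 (adjusted p 0.0515), and 0.29 with an adjusted p of 0.0233 without TNF replicate 4, so that the size rests on that library. It was also called without TNF replicate 1 (0.67, adjusted p 0.0268) or TNF replicate 3 (0.69, adjusted p 0.0411), and with all libraries under RLE scaling (0.57, adjusted p 0.0476) or without a filter beyond 1 count (0.52, adjusted p 0.0284). *Kdelr3* is a gene with TGACGTGG before its start. *Kdelr1* had 103, 108, 106 and 93.1 with PBS and 88.4, 91.3, 92.2 and 77.0 with TNF. Its TNF libraries all lay below the PBS libraries, at -0.23 ± 0.11 (adjusted p 0.118, 95% interval -0.48 to 0.01). *Kdelr2*, the most abundant of the 3 with PBS, stayed near 0 at 0.02 ± 0.14 (-0.28 to 0.32). The share of *Kdelr3* in the summed *Kdelr* level per kb was 14.8%, 13.7%, 15.3% and 15.7% in the PBS libraries and 16.6%, 18.0%, 18.6% and 34.2% in the TNF libraries.

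Because a ratio of 2 genes within a library does not depend on how libraries are scaled, 12 ratios of paralogues or partners were set against each other, TNF against PBS, in an exact permutation test (two-sided, 4 and 4 libraries), whose smallest possible p is 0.0286. In 4 ratios the groups did not overlap and p was 0.0286. These were *Mcfd2*/*Lman1* (a log2 difference of 1.39, or 2.62-fold), *Sec23b*/*Sec23a* (1.10), *Kdelr3*/*Kdelr1* (0.76) and *Kdelr2*/*Kdelr1* (0.25). After Benjamini-Hochberg adjustment over the 12 ratios each had p = 0.0857 by the exact permutation test, so 0 of 12 passed, and 7 ratios at the smallest p would have been needed for any to pass. Each of the 4 was higher in 4 of 4 TNF libraries than in any PBS library. *Sec23b* had 7.23, 7.36, 6.88 and 3.01 times the counts of *Sec23a* in the PBS libraries and 12.5, 14.0, 11.9 and 11.2 times in the TNF libraries. PBS replicate 4 was again the low library. *Kdelr2* had 1.37, 1.36, 1.35 and 1.23 times the counts of *Kdelr1* with PBS and 1.69, 1.69, 1.42 and 1.54 times with TNF. Without TNF replicate 4 the same 4 ratios did not overlap (exact permutation p 0.0571, the smallest that 3 against 4 libraries allow), and *Sar1b*/*Sar1a* joined them. The *Kdelr3*/*Kdelr1* difference was then 0.45 in place of 0.76. The *Sar1b* to *Sar1a* count ratio was 0.308, 0.356, 0.330 and 0.282 with PBS and 0.229, 0.218, 0.202 and 0.653 with TNF. That is a log2 difference of -0.16 with all libraries and -0.56 without TNF replicate 4. The other 7 ratios overlapped with and without that library, among them the 3 of *Sec24a*, *Sec24b* and *Sec24d* to *Sec24c*.

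**Figure D4:**
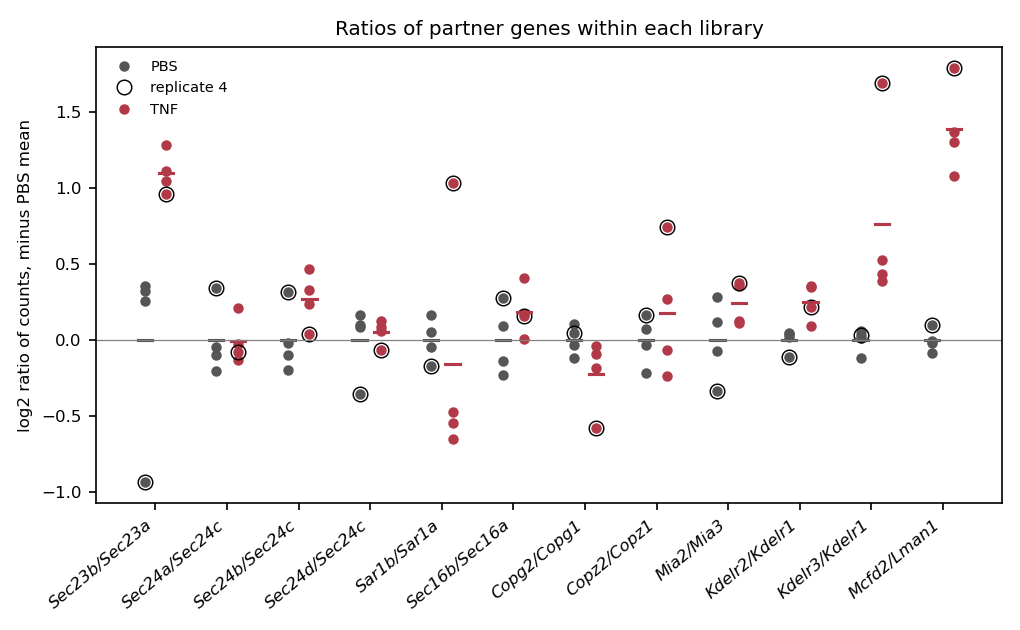
Log2 ratio of the counts of 2 genes in each library, minus the mean of the 4 PBS libraries (y axis), for 12 ratios, with PBS in grey, TNF in red, group means as bars and replicate 4 circled. *Mcfd2*/*Lman1* moves most, with a difference of 1.39, and replicate 4 of either group is often the farthest point.

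TNF replicate 4 stood apart from the other TNF libraries in some of the 37 genes more than in others. Its normalized CPM was at least 1.5-fold above the mean of TNF replicates 1 to 3 for 7 of the 37 genes: *Sar1b*, *Sec13*, *Tmed2*, *Tmed3*, *Cope*, *Copz2* and *Kdelr3*. For *Sar1b*, with a canonical transcript of 1261 bases, the log2 difference was 1.90, and for *Mia3*, with 10825 bases, it was -0.46. Across the 37 genes the log2 difference and the log2 transcript length gave a Pearson r of -0.546 and a Spearman rho of -0.451, and across 13316 tested genes with a length r was -0.298. Genes within a library share its depth and its RNA and are not independent. The log2 fold change of the 37 genes had a Pearson r with length of -0.225 over all 8 libraries and -0.00128 without TNF replicate 4. PBS replicate 4 was lower than the mean of the other PBS libraries in 30 of the 37 genes, most of all in *Sec23b* by 0.96 and *Lman2* by 0.68 on the log2 scale. Neither this count nor that of the 7 genes above was set against all tested genes, so neither can be read as a trait of the 37.

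**Figure D5:**
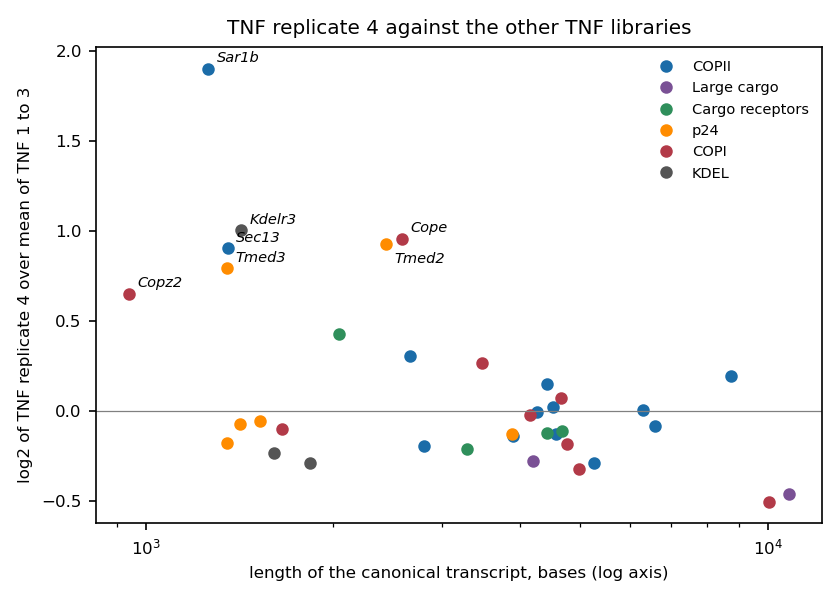
Log2 of the normalized CPM in TNF replicate 4 over the mean of TNF replicates 1 to 3 (y axis) against the length of the canonical transcript in bases (x axis, log scale) for the 37 genes, coloured by role. The 7 named genes lie above 0.6 and all have transcripts under 3000 bases.

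Fold changes over the whole table depended on how libraries were scaled. Scaled by library size alone, the median over every gene tested was -0.38 in place of 0.03 on the log2 scale and 0 of the 37 genes were called by edgeR. Without TNF replicate 4 the median under that scaling was -0.20. With all libraries and relative to the median of -0.38 the 8 called genes kept their directions, at 1.08 for *Tmed5*, 0.90 for *Sec23b*, 0.87 for *Mcfd2*, 0.63 for *Sar1a*, 0.56 for *Sec24b*, 0.42 for *Sec16b*, 0.27 for *Sec24c* and -0.46 for *Lman1*. Unshifted, *Sec24c* was at -0.11 under that scaling and the other 7 kept their sign.

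Genes that act beside the coats were taken from 6 lists with 94 genes, of which 92 were tested. Of these 23 rose and 11 fell, or 37.0%, against 43% of all tested genes (23.4% higher and 19.6% lower), with a median log2 fold change of 0.15. Without TNF replicate 4, 33 were called higher and 15 lower, or 52.2% against 50.4% of all tested genes (26.6% higher and 23.8% lower), with a median of 0.076. Among 15 tested further cargo receptors and p24 proteins, 4 rose and 1 fell, or 33.3% (2 called without PBS replicate 1 and 3 without PBS replicate 3, where the share over all tested genes was 35.1% and 36.9%), and the median log2 fold change of 0.21 became -0.033 without TNF replicate 4. *Cnih4*, a cornichon cargo receptor, had 6.70, 7.10, 6.42 and 5.16 normalized CPM with PBS and 12.6, 14.5, 8.60 and 21.6 with TNF (log2 change 1.16 ± 0.24, adjusted p 0.00298), and *Lman2l*, a lectin of the *Lman2* kind, fell by 0.63 on the log2 scale (SE 0.19, adjusted p 0.0236). Among 17 SNAREs and fusion factors, which merge the vesicles with their target, 5 rose and 2 fell, or 41.2%, near the 43% of all tested genes, and without TNF replicate 4 these counts were 8 and 3, or 64.7% against 50.4% of all tested genes. In the *Sec22* family the calls went opposite ways. *Sec22a* rose by 0.97 ± 0.25 (adjusted p 0.0098), and by 0.67 without TNF replicate 4 (adjusted p 0.00336). *Sec22c* fell by 1.15 on the log2 scale (SE 0.13, adjusted p 5.95e-05), from 10.2 ± 0.814 to 4.63 ± 0.492 normalized CPM (mean ± SD, n = 4). The remaining *Sec22* gene of the list, *Sec22b*, was not called (0.38 ± 0.15, adjusted p 0.0675). Among 30 tethers and Rab GTPases, 8 rose and 3 fell, or 36.7% against 43% of all tested genes (6 called without PBS replicate 1, where 35.1% of all tested genes were). *Rab18* had 54.5, 54.5, 56.2 and 50.6 normalized CPM with PBS and 124, 133, 137 and 112 with TNF (1.23 ± 0.11, adjusted p 1.07e-05), and *Gorasp1*, a Golgi stacking protein, fell by 0.67 (SE 0.12, adjusted p 0.00104).

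Among 10 ARF GTPases and regulators of COPI, 4 rose and 0 fell, or 40% against 43% of all tested genes, and 2 were called without PBS replicate 1 or without TNF replicate 2, where the share over all tested genes was 35.1% and 36%. *Arf5* was called at 0.61 ± 0.11 (adjusted p 0.00155). None of 8 tested COPII accessory genes was called by edgeR, DESeq2 or limma-voom with all libraries (1 at an unadjusted p under 0.05). Of all tested genes edgeR called 43% and DESeq2 45.5%. Without TNF replicate 4 edgeR called 1 of the 8, or 12.5% against 50.4%. Among 12 transcription factors and proteases known to set secretory capacity, 2 rose and 5 fell, or 58.3% against 43% of all tested genes (23.4% higher and 19.6% lower). *Xbp1*, a regulator of the unfolded protein response, had 248, 265, 258 and 224 normalized CPM with PBS and 508, 608, 673 and 478 with TNF (1.19 ± 0.15, adjusted p 0.000135). *Bhlha15*, known as Mist1 and as a factor of mature secretory cells, had 235, 226, 232 and 200.3 with PBS and 64.9, 52.9, 37.9 and 44.9 with TNF, a fall by 2.15 on the log2 scale (SE 0.17, adjusted p 5.09e-06). Counts of mRNA do not show how much spliced XBP1 was present.

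Some of these genes share sequence or position with others, which limits what a count can be assigned to. In the GENCODE annotation exons of 21 of the 37 overlap exons of another gene, and for 7 the overlap with another gene reaches 10% of the exon length. The strongest case is *Surf4*, of whose exons 79.8% overlap *Surf2* on the opposite strand, and *Mia3* overlaps *Aida* over 35.2%, *Copg2* overlaps *Mest* over 34.5% and *Tmed7* overlaps *Ticam2* on the same strand over 30.7%. *Sar1b* and *Sec24a* stand head to head and share 149 exon bases. A 75-base stretch of the canonical transcript counted as shared if it or its reverse complement lay in a transcript of another gene. By that rule 28.1% of stretches were unique to *Surf4*, 54.4% to *Tmed10*, 59.3% to *Mia3*, 70.4% to *Copg2* and 77.6% to *Tmed2*. For *Surf4*, *Mia3* and *Copg2* the overlapping genes named above lie on the opposite strand. Since the strand setting of the counter is not given, these 5 values are uncertain. In the 8 called genes at least 96.8% were unique.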

How the data were processed

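The deposited table held raw counts per Ensembl gene, which the authors had not normalized; the labels name FastQC 0.12, STAR 2.7.10a and DESeq2 with genome build mm39, total RNA from sorted cells and a stranded mRNA library kit. The sources used here do not give the counter, its strand setting or its annotation. All 8 columns were used, and of 55414 identifiers 54749 matched a symbol in GENCODE mouse release 39. The members, lists, ratios and motifs were chosen with earlier results of these data known. Counts were tested with edgeR 4.0.16 (TMM scaling, filterByExpr, quasi-likelihood F test, R 4.3.3), 4 TNF against 4 PBS libraries with no covariate, and Benjamini-Hochberg adjustment over 13368 genes at 0.05. Normalized CPM are counts divided by the TMM-scaled library size, on the usual CPM scale. DESeq2 1.42.0 and limma 3.58.1 (voom) were alternatives, as were other scalings and filters, a replicate block and the omission of each library. Ratios used counts plus 0.5. The fits and the ratio test were tested on simulated data. No 2 libraries of a group differed by less than sampling noise. From each list the called gene that rose most and the called gene that fell most were named, among those with a mean of at least 5 normalized CPM. *Sec22b* was named beside them to complete its family, after its values were seen. Total counts of 23824717 to 32576077 per library gave every member at least 139 counts in each library, and since PCR reads without molecular identifiers are not independent molecules, p-values rest on the spread between libraries.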

Additional observations from a re-analysis of the deposited data

Results flagged for a closer look

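In each group of 4 libraries the highest and the lowest value were compared with the others. A value was set aside for a closer look when its gap to the nearest other library, as a share of the group's range, exceeded Dixon's 95% critical value for 4, which chance alone does in about 1 of 20 groups. Among 74 groups of gene values and 24 groups of ratios, 13 values met this rule, and all came from replicate 4 of either treatment.

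In TNF replicate 4, 6 genes and 2 ratios stood apart. *Sar1b* had 119.5 normalized CPM against 30.8 to 33.1 in the other TNF libraries, *Sec13* 86.5 against 44.8 to 47.5, *Tmed2* 124 against 60.0 to 68.4, *Tmed3* 210.2 against 117 to 126, *Cope* 119.7 against 59.4 to 63.8, and *Kdelr3* 83.3 against 38.6 to 44.0. The log2 ratio of *Sar1b* to *Sar1a* was -0.62 against -2.31 to -2.13, and that of *Kdelr3* to *Kdelr1* was 0.11 against -1.20 to -1.05.

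In PBS replicate 4, 2 genes and 3 ratios did. *Mcfd2* had 105 normalized CPM against 117 to 118 in the other PBS libraries, and *Lman2* 93.1 against 147 to 151. The log2 ratio of *Sec23b* to *Sec23a* was 1.59 against 2.78 to 2.88, that of *Sec24d* to *Sec24c* 0.36 against 0.80 to 0.88, and that of *Kdelr2* to *Kdelr1* 0.30 against 0.43 to 0.45.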

How the results depend on the processing

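Of the 8 called genes, 5 kept their call in every one of 18 alternative fits but scaling by library size alone (*Lman1* among them, although its change is below 1.5-fold), and the median over the 37 genes relative to all genes stayed within the spread between libraries in every setting tried. The cause of each change listed here was not tested. Scaling by library size alone called 3182 genes in all (23.8%), 0 transport genes higher and 0 lower, 0 of the further cargo receptors, 2 SNAREs, 2 tethers and Rabs, 0 ARF genes and 3 transcription factors. It also turned the log2 change negative for *Preb* (-0.22), *Sec24a* (-0.13), *Sec24c* (-0.11), *Sec24d* (-0.035), *Sec13* (-0.065), *Sec16a* (-0.13), *Tmed2* (-0.25), *Tmed7* (-0.29), *Tmed9* (-0.18), *Copb1* (-0.082), *Copz2* (-0.42), *Arcn1* (-0.33) and *Kdelr2* (-0.32). The same scaling without TNF replicate 4, chosen after seeing the data, called 4 transport genes higher and 5 lower, where it called 44.6% of all genes, with *Sar1b* at -0.13, *Tmed2* at -0.18, *Tmed7* at -0.049, *Copz2* at -0.30, *Arcn1* at -0.071 and *Kdelr2* at -0.064. With neither replicate 4 library, also chosen after seeing the data, 7 transport genes were called lower, and 11 of 15 further cargo receptors, 1 of 8 COPII accessory genes, 13 of 17 SNAREs and 19 of 30 tethers and Rabs were called, against 56.9% of all genes. There *Sar1b* was at -0.097, *Tmed2* at -0.074 and *Copz2* at -0.15, and the log2 ratio differences were 0.13 for *Sec24a*/*Sec24c* and -0.024 for *Sec24d*/*Sec24c*.

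DESeq2 called 10 transport genes higher and 2 lower, where it called 45.5% of all tested genes (24.1% higher and 21.4% lower). Without a filter beyond 1 count, 7 were called higher and 2 lower, 7 tethers and Rabs and 2 ARF genes were called (24.9% of all genes), and *Copz2* was at -0.011, *Arcn1* at -0.015 and *Kdelr2* at -0.017. At an adjusted p under 0.01, 2 further cargo receptors, 6 tethers and Rabs and 2 ARF genes were called (29.2% of all genes). With a change of at least 1.5-fold also required, 4 transport genes were called higher and 0 lower, and 4 SNAREs, 5 tethers and Rabs and 1 ARF gene were called (33.2% of all genes).

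Leaving out each library in turn gave 5 to 10 transport genes called higher and 1 to 3 lower, 2 to 7 further cargo receptors, 0 to 1 COPII accessory genes, 6 to 11 SNAREs, 6 to 16 tethers and Rabs and 2 to 5 ARF genes, while the calls over all genes ran from 4756 (35.1%) to 6922 (50.4%). Log2 changes crossed 0 for *Surf4* (-0.14 to 0.042), *Tmed2* (-0.010 to 0.38), *Tmed3* (-0.29 to 0.024), *Tmed7* (-0.048 to 0.12), *Cope* (-0.30 to 0.092), *Copz2* (-0.12 to 0.12), *Arcn1* (-0.035 to 0.11) and *Kdelr2* (-0.086 to 0.10), none of which was called with all libraries. So did the ratio differences of *Sec24a*/*Sec24c* (-0.077 to 0.11), *Sec24d*/*Sec24c* (-0.063 to 0.11), *Sar1b*/*Sar1a* (-0.56 to 0.0075) and *Copz2*/*Copz1* (-0.011 to 0.32).

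The replicate numbers were not used as pairs, since nothing in the labels says that they pair mice. Libraries with the same number deviated together with correlations of 0.0229, 0.0663, -0.144 and -0.126. With the replicate number as a block, 5087 genes were called (38.1%), 6 transport genes higher and 1 lower, and 2 ARF genes. PBS replicates 1 and 2 correlated best with the TNF library of their own number, and PBS replicates 3 and 4 with that of another number. Each transport gene had at least 139 counts in every library. For the ratios the number of libraries limits the test, since the exact test of 4 against 4 cannot go below 0.0286 and a sign-flip test over 4 pairs not below 0.125.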
